A study of Mus musculus with 8 samples.

Results

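The genes described here serve MHC class I antigen presentation in mouse bone-marrow-derived macrophages (BMDM). They were taken by symbol from the gene count table. All 10 listed genes had a row there, of 34745 genes in all, and all 10 passed the filter on low counts, as did 14040 genes of the table. They are the heavy chain genes H2-K1, H2-D1 and H2-M2, the light chain gene B2m, the peptide transport and loading genes Tap1, Tap2 and Tapbp, the inducible proteasome genes Psmb8 and Psmb9, and the transactivator gene Nlrc5. The 8 libraries of messenger RNA form 4 groups of 2: KAT8-deficient BMDM given R848 at 100 ng/ml for 6 h, WT BMDM given the same, KAT8-deficient BMDM left untreated, and WT BMDM left untreated. All were grown from marrow in M-CSF at 20 ng/ml. KAT8, also called MOF, acetylates histone H4, and R848 is a synthetic agonist of TLR7. The sample titles call the mutant KAT8-cKO. The driver of the deletion, the strain and the age of the mice were not stated in the sources read, nor was it stated that replicate libraries stem from different mice or cultures, and p-values therefore measure only the spread between these libraries, which may be technical.

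MHC class I molecules show peptides from inside the cell to CD8+ T cells. The proteasome cuts proteins into peptides, and in immune cells the subunits encoded by Psmb8, Psmb9 and Psmb10 replace the constitutive catalytic subunits encoded by Psmb5, Psmb6 and Psmb7. The TAP1 and TAP2 proteins form the pump that carries peptides into the endoplasmic reticulum, where tapasin, the product of Tapbp, helps to load them onto a heavy chain bound to beta 2 microglobulin, the product of B2m. NLRC5 is a transactivator that acts on class I promoters through a composite element of neighbouring boxes, one of which, the Y box, holds CCAAT. NF-kB and interferon regulatory factors also act on these promoters, and all of these inputs can change when a macrophage is stimulated.

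Promoter windows of 250 bases before to 50 bases after the start were matched for 8 of the 10 genes, from RefSeq on GRCm38.p6. Tap2 and Nlrc5 had no entry. The windows below are shown because 3 of them share the same letters at the same spacing. That of H2-M2, which responded most to R848, does not hold them. Neither do the windows of Tap1, Tapbp, Psmb8 and Psmb9, which are not printed, so this absence is not particular to H2-M2. Capitals mark matches, on either strand, to an NF-kB motif (GGG, 2 bases of any kind, T, 1 of any kind and CCC, or the overlapping and stricter GGGGA, 1 of any kind and TCCC), to the core of an interferon-stimulated response element (GAAA, 2 bases of any kind and GAAA), and to TGACG followed after 20 bases by ATTGG, the reverse complement of CCAAT.
H2-K1 (chr17:34000298-34000597, minus strand): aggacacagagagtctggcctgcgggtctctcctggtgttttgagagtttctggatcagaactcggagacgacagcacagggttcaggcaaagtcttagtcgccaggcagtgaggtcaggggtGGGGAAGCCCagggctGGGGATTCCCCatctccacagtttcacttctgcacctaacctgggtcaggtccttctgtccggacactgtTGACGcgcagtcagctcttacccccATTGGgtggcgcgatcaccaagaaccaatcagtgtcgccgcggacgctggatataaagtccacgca
H2-D1 (chr17:35262844-35263143, plus strand): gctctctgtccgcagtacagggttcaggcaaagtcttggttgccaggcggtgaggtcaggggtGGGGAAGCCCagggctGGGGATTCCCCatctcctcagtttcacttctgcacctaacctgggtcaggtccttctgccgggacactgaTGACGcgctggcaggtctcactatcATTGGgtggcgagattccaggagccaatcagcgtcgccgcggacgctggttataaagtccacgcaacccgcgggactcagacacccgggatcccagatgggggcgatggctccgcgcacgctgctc
B2m (chr2:122147437-122147736, plus strand): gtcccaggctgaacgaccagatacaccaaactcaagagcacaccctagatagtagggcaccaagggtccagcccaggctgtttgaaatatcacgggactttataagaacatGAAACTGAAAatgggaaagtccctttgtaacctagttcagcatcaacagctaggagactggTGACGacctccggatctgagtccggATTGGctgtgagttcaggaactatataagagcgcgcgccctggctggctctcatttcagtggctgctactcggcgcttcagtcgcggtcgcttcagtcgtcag
H2-M2 (chr17:37483505-37483804, minus strand): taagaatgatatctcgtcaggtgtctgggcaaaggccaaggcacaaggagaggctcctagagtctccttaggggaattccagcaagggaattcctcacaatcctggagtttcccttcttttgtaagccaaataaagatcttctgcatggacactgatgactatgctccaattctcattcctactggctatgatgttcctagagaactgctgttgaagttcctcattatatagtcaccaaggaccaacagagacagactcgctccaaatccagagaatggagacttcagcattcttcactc
The pair TGACG and ATTGG with 20 bases between them stood at bases -41 to -12 from the start used for the printed window of H2-K1 (-55 to -26 from a second annotated start), at -101 to -72 in H2-D1 and at -78 to -49 in B2m. Over all RefSeq windows of this length it was found, on either strand, in 31 of 32851, or 0.0944%. This spacing was chosen after the windows had been read. Of 16 other class I chain genes with a window, only H2-M3 held it. The strict NF-kB motif was found in H2-K1 and H2-D1 among the 8 members with a window, in H2-Q6 and H2-Q7 among the 16 other chains and in Irf1 among the regulators, and in 0.323% of all windows, against 5.02% for the looser form. The interferon core was found in B2m among the members, in H2-T22 and H2-T23 among the other chains and in Erap1, Psme1 and Irf2 among the rest of the pathway, and in 3.44% of all windows. Single boxes are common, CCAAT being in 37.4% and TGACG in 20.8% of all windows. Aligned without gaps on the strict NF-kB match, the windows of H2-K1 and H2-D1 were identical at 176 of 240 bases, or 73.3%. Tap1 and Psmb9 lie head to head on chromosome 17, and their annotated spans overlap by 212 bases. A match to letters is a description and shows neither binding nor its absence.

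Library totals ran from 18550977 to 21384532 counts, so a floor of 3 counts is 0.14 to 0.162 CPM, the library-scaled unit used below, which is under the value of every member. Kat8, the targeted gene, averaged 10.2 ± 0.307 CPM in KAT8-deficient and 17 ± 1.45 CPM in WT cells under R848, and 9.76 ± 1.41 CPM in KAT8-deficient and 17.4 ± 0.641 CPM in WT cells left untreated (SD, n = 2 each). The log2 difference was -0.74 (edgeR adjusted p = 0.00553, 0.0526 without WT R848 replicate 1) under R848 and -0.84 (adjusted p = 0.0113) untreated, the untreated call being lost without KAT8-deficient untreated replicate 1 (0.0881), WT untreated replicate 1 (0.0518) or WT untreated replicate 2 (0.0589). The deleted exons were not stated, so reads outside them may remain, and the source of the remaining Kat8 counts was not tested. Macrophage markers fixed as a list were present in every library, with 0 of 9 at 0. Their summed level was 8834 to 9344 CPM in KAT8-deficient and 15209 to 16671 CPM in WT libraries under R848, and 9057 to 9905 CPM in KAT8-deficient and 15649 to 15766 CPM in WT libraries without it. Without Lyz2, a lysozyme gene, the other 8 gave 3632 to 4009 CPM in KAT8-deficient and 4181 to 4531 CPM in WT libraries under R848, and 3717 to 3962 CPM in KAT8-deficient and 4016 to 4174 CPM in WT libraries untreated. Stromal and endothelial markers were also present and summed to 4030.1 to 4111 CPM in KAT8-deficient and 2756 to 2963 CPM in WT libraries under R848, and 4547 to 4785 CPM in KAT8-deficient and 3286 to 3804 CPM in WT libraries untreated. Summed markers of T and NK cells stayed at or below 1.26 CPM in every library, those of B cells at or below 1.74 CPM and those of neutrophils at or below 7.95 CPM. The 6 dendritic cell markers summed to 21.4 to 23.8 CPM in KAT8-deficient and 13.3 to 14.3 CPM in WT libraries under R848, and to 21.6 to 24.2 CPM in KAT8-deficient and 15 to 16.9 CPM in WT libraries untreated. Among them Flt3 was at 0 in all 8 and Zbtb46 at 7.33 to 9.34 CPM, and Dpp4 averaged 13.3 ± 1.99 CPM in KAT8-deficient and 4.4 ± 0.269 CPM in WT cells under R848, and 13.4 ± 1.62 CPM in KAT8-deficient and 7.2 ± 0.356 CPM in WT cells untreated (SD, n = 2 each).

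The first question was how class I genes differed between KAT8-deficient and WT macrophages under R848. Of the 10 genes, 7 were called lower in KAT8-deficient cells and 0 higher, against 5.47% of all tested genes called lower and 8.14% called higher. Those that passed were H2-K1, H2-M2, B2m, Tap2, Tapbp, Psmb8 and Nlrc5, while H2-D1, Tap1 and Psmb9 did not pass. In all 10 genes both KAT8-deficient libraries were below both WT libraries, where 30.3% of all tested genes showed that order. The median log2 difference over the 10 was -0.50, and over all tested genes -0.01. Without R848 the order was the same in all 10 genes, against 25.5% of all tested genes, with 4 called lower (H2-K1, H2-M2, Tap2 and Psmb8) where 1.36% of all tested genes were lower and 2.91% higher, and a median of -0.34 beside -0.01 over all tested genes. In 13 stromal and endothelial markers, of which 11 were tested, 9 were higher in KAT8-deficient cells under R848 and 7 untreated, and the 4 endothelial genes of the list differed among themselves. Pecam1 and Emcn stayed at or below 0.163 and 0.0535 CPM in every library, while Kdr was at 19.5 to 38.1 CPM. Cdh5 averaged 0.825 ± 0.0339 CPM in KAT8-deficient and 1.7 ± 0.237 CPM in WT cells under R848, and 0.448 ± 0.331 CPM in KAT8-deficient and 1.17 ± 0.268 CPM in WT cells untreated (SD, n = 2 each), and was not called. Of 9 macrophage markers, 4 were lower and 1 was higher in KAT8-deficient cells under R848, and 1, Lyz2, was lower untreated (log2 difference -1.14 under R848 and -1.04 untreated). The part of these marker changes in the class I differences was not tested. In such bulk libraries fewer cells of a type and less RNA per cell cannot be told apart.

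**Figure D1:**
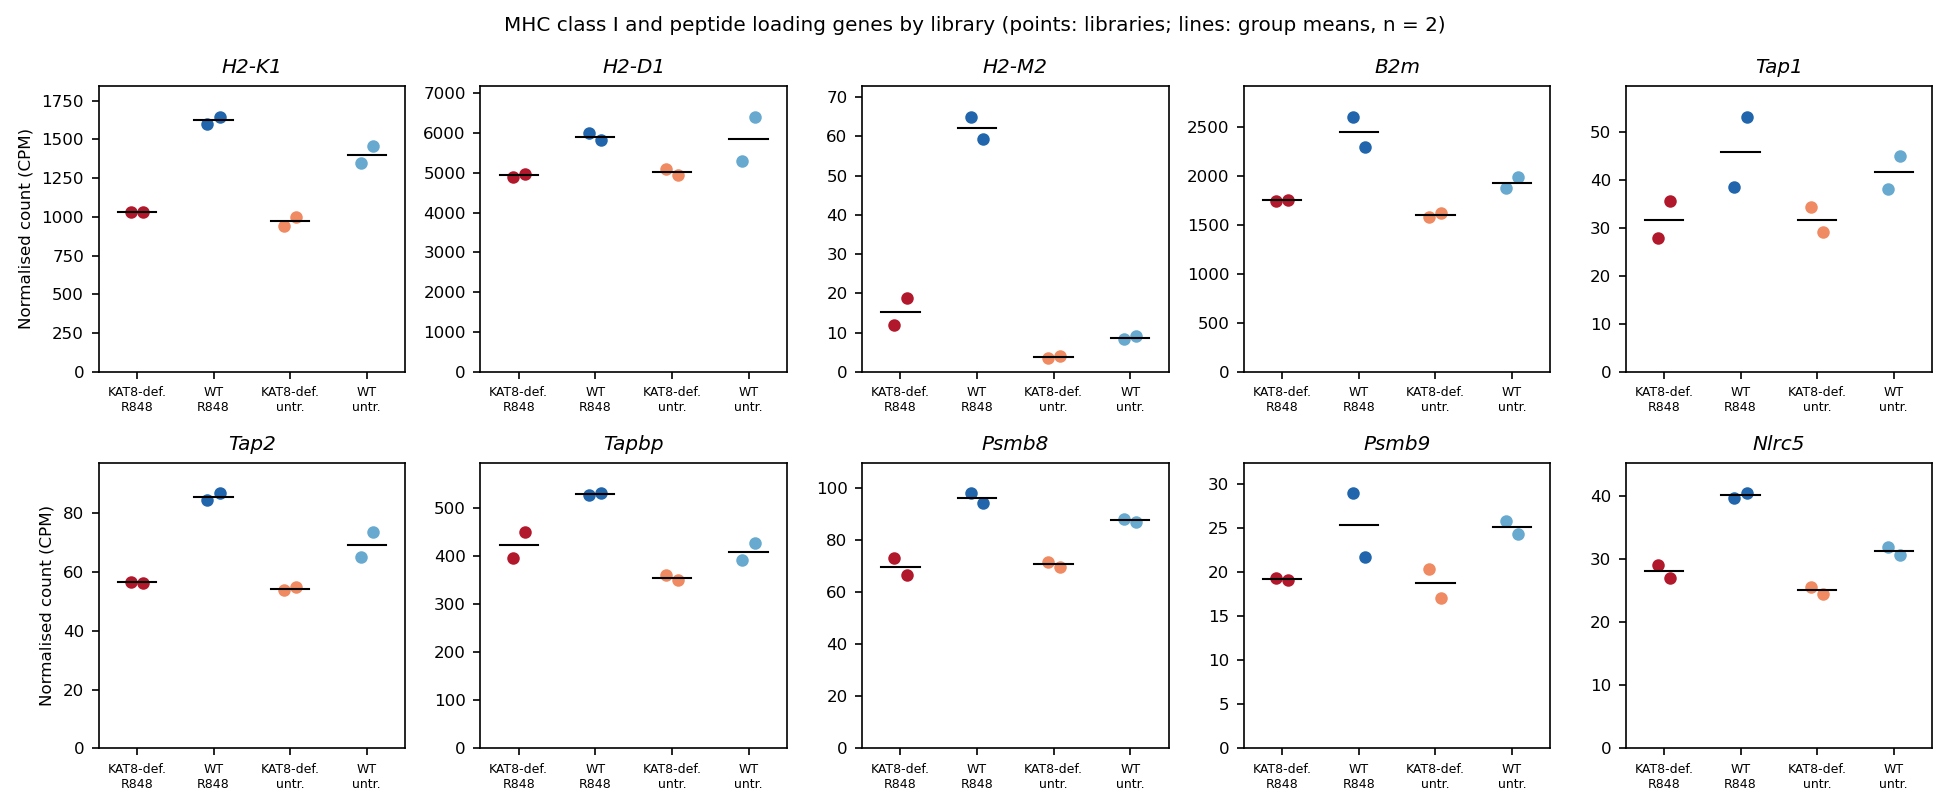
Normalised count (CPM, linear axes from 0) of each class I gene in each library, by group, with lines at the means of 2 libraries. In all 10 panels the KAT8-deficient points lie below the WT points of the same treatment, and H2-M2 shows the largest fold rise with R848, to 65 and 59.3 CPM in WT cells, though not the largest in CPM.

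H2-K1 (ENSMUSG00000061232, chromosome 17, 33996017 to 34000347, GRCm38) encodes a classical heavy chain, which presents peptides to CD8+ T cells. Under R848 it stood at 1029.8 and 1033 CPM in KAT8-deficient libraries and at 1599.8 and 1647 CPM in WT libraries. Untreated it stood at 939.6 and 1002 CPM in KAT8-deficient libraries and at 1348 and 1455 CPM in WT libraries. The highest KAT8-deficient value was thus below the lowest WT value whatever the treatment. The log2 difference was -0.65 (SE 0.060, edgeR adjusted p = 0.000527) under R848 and -0.53 (SE 0.060, edgeR adjusted p = 0.00428) untreated. The untreated call was lost without KAT8-deficient untreated replicate 1 (-0.49, adjusted p = 0.0546), and the call under R848 held whichever library was left out.

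H2-D1 (ENSMUSG00000073411, chromosome 17, 35262730 to 35267499) encodes the other classical heavy chain. Its level under R848 was 4908 and 4977 CPM in KAT8-deficient libraries and 6009.7 and 5819 CPM in WT libraries. Its untreated level was 5108 and 4939 CPM in KAT8-deficient libraries and 5311 and 6416 CPM in WT libraries, the last of these standing well above its partner. Its libraries did not overlap between genotypes, but the log2 difference of -0.26 (SE 0.082, 95% interval -0.45 to -0.07, edgeR adjusted p = 0.0721) under R848 and of -0.22 (SE 0.082, interval -0.41 to -0.04, adjusted p = 0.172) untreated did not pass. The difference under R848 passed without either untreated WT library (adjusted p = 0.00874 without replicate 1 and 0.00882 without replicate 2), by the DESeq2 Wald test (-0.26, adjusted p = 0.0406) and in 3 further alternatives, and the untreated one passed without WT untreated replicate 1 (-0.36, adjusted p = 0.027). Of windows of 50 bases in its annotated transcripts, 12.8% were also found in transcripts of other genes, mainly H2-Q1 and H2-K1. For H2-K1 that share was 9.63%. Reads from these stretches could have been assigned to either gene, and the counting settings were not stated.

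H2-M2 (ENSMUSG00000016283, chromosome 17, 37480851 to 37483552) is a class Ib gene, a relative of the classical heavy chains. In R848-treated cells it measured 11.9 and 18.8 CPM in KAT8-deficient libraries and 65 and 59.3 CPM in WT libraries. In untreated cells it measured 3.46 and 4.01 CPM in KAT8-deficient libraries and 8.25 and 9.23 CPM in WT libraries. The genotypes did not overlap in either state, and the 2 KAT8-deficient R848 libraries stood apart from each other. On the log2 scale the difference was -2.02 (SE 0.18, edgeR adjusted p = 0.000503) under R848 and -1.22 (SE 0.23, edgeR adjusted p = 0.0257) untreated. The untreated call was lost without any 1 of the 4 untreated libraries (-1.33 to -1.12, adjusted p = 0.0859 to 0.176) and by limma-voom (-1.22, adjusted p = 0.0673). The difference under R848 passed in every alternative run. Only 1.61% of its windows of 50 bases were shared with another gene.

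B2m (ENSMUSG00000060802, chromosome 2, 122147686 to 122153083) encodes the light chain that every classical class I molecule needs to reach the surface. With R848, counts were at 1741 and 1755 CPM in KAT8-deficient libraries and at 2602 and 2292 CPM in WT libraries. Without R848, counts were at 1583 and 1623 CPM in KAT8-deficient libraries and at 1872 and 1989 CPM in WT libraries. KAT8-deficient libraries given R848 thus stayed below the untreated WT libraries. Genotypes differed on the log2 scale by -0.49 (SE 0.069, edgeR adjusted p = 0.00254) under R848, and it passed in every alternative. Untreated it was -0.27 (SE 0.069, 95% interval -0.42 to -0.11, edgeR adjusted p = 0.0702), which did not pass, although it did with no filter on low counts (adjusted p = 0.0249), by the DESeq2 Wald test (0.0362) and with robust estimation of the spread (0.0432). B2m shared 0 of its 811 windows of 50 bases with any other gene.

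Tap2 (ENSMUSG00000024339, chromosome 17, 34203527 to 34216321) encodes one chain of the peptide pump. Under R848 it stood at 56.6 and 56.3 CPM in KAT8-deficient libraries and at 84.5 and 86.8 CPM in WT libraries. Untreated it stood at 53.7 and 54.7 CPM in KAT8-deficient libraries and at 65 and 73.6 CPM in WT libraries. The KAT8-deficient values lay close together across treatments, and all were below the WT values. The log2 difference was -0.60 (SE 0.073, edgeR adjusted p = 0.00129) under R848, which passed in every alternative, and -0.35 (SE 0.074, edgeR adjusted p = 0.0356) untreated. The untreated call was lost without either KAT8-deficient untreated library, WT untreated replicate 2 or either WT R848 library (-0.37 to -0.26, adjusted p = 0.0678 to 0.206) and with only the 4 libraries compared (adjusted p = 0.0858).

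Tap1 (ENSMUSG00000037321, chromosome 17, 34187553 to 34197225), its partner, had wider spread. Its level under R848 was 27.8 and 35.5 CPM in KAT8-deficient libraries and 38.4 and 53.1 CPM in WT libraries. Its untreated level was 34.3 and 29 CPM in KAT8-deficient libraries and 38 and 45 CPM in WT libraries. The groups did not overlap but came close to each other in both states. KAT8-deficient minus WT, the log2 value was -0.53 (SE 0.18, 95% interval -0.94 to -0.13, edgeR adjusted p = 0.0844) under R848 and -0.39 (SE 0.18, interval -0.80 to 0.02, adjusted p = 0.266) untreated, neither of which passed. The value under R848 passed by the DESeq2 Wald test (-0.54, adjusted p = 0.0202) and with no filter on low counts (-0.52, adjusted p = 0.0291). The size for Tap1 under R848 was near that for Tap2, and its SE was larger.

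Tapbp (ENSMUSG00000024308, chromosome 17, 33915899 to 33929292) encodes tapasin, the chaperone that bridges the transporter and the empty heavy chain. In R848-treated cells it measured 396.8 and 448.9 CPM in KAT8-deficient libraries and 527.7 and 530.7 CPM in WT libraries. In untreated cells it measured 359.9 and 349.4 CPM in KAT8-deficient libraries and 390.6 and 426.1 CPM in WT libraries. The KAT8-deficient R848 libraries reached the range of untreated WT libraries, which they did not for Tap1 and Tap2. On the log2 scale the difference was -0.32 (SE 0.074, edgeR adjusted p = 0.0212) under R848 and -0.20 (SE 0.074, 95% interval -0.37 to -0.04, edgeR adjusted p = 0.169) untreated. The call under R848 was lost without KAT8-deficient R848 replicate 1 (-0.24, adjusted p = 0.134), WT R848 replicate 1 (-0.32, adjusted p = 0.104) or WT R848 replicate 2 (-0.32, adjusted p = 0.0982).

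Psmb8 (ENSMUSG00000024338, chromosome 17, 34197721 to 34201454) encodes the inducible chymotrypsin-like subunit. With R848, counts were at 73.1 and 66.5 CPM in KAT8-deficient libraries and at 98 and 94.1 CPM in WT libraries. Without R848, counts were at 71.6 and 69.8 CPM in KAT8-deficient libraries and at 88.2 and 86.8 CPM in WT libraries. All 4 KAT8-deficient values lay below all 4 WT values. Genotypes differed on the log2 scale by -0.46 (SE 0.067, edgeR adjusted p = 0.00283) under R848 and passed in every alternative. Untreated it was -0.31 (SE 0.067, edgeR adjusted p = 0.0407), a call lost without any library of the untreated groups or of the WT R848 group, 6 of the 8 in all (-0.33 to -0.29, adjusted p = 0.075 to 0.183), with only the 4 libraries compared (0.068) and by DESeq2 (0.0604). Psmb9 (ENSMUSG00000096727, chromosome 17, 34181987 to 34187764) encodes the inducible subunit that replaces the product of Psmb6. Psmb9 stood at 19.4 and 19.1 CPM in KAT8-deficient and at 29 and 21.7 CPM in WT libraries under R848. Without R848, counts were at 20.4 and 17.1 CPM in KAT8-deficient and at 25.8 and 24.4 CPM in WT libraries. Its log2 differences of -0.39 (SE 0.14, 95% interval -0.72 to -0.07, edgeR adjusted p = 0.112) and -0.42 (SE 0.14, interval -0.75 to -0.09, adjusted p = 0.149) did not pass, though the first passed without WT R848 replicate 2 (-0.58, adjusted p = 0.041).

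**Figure D2:**
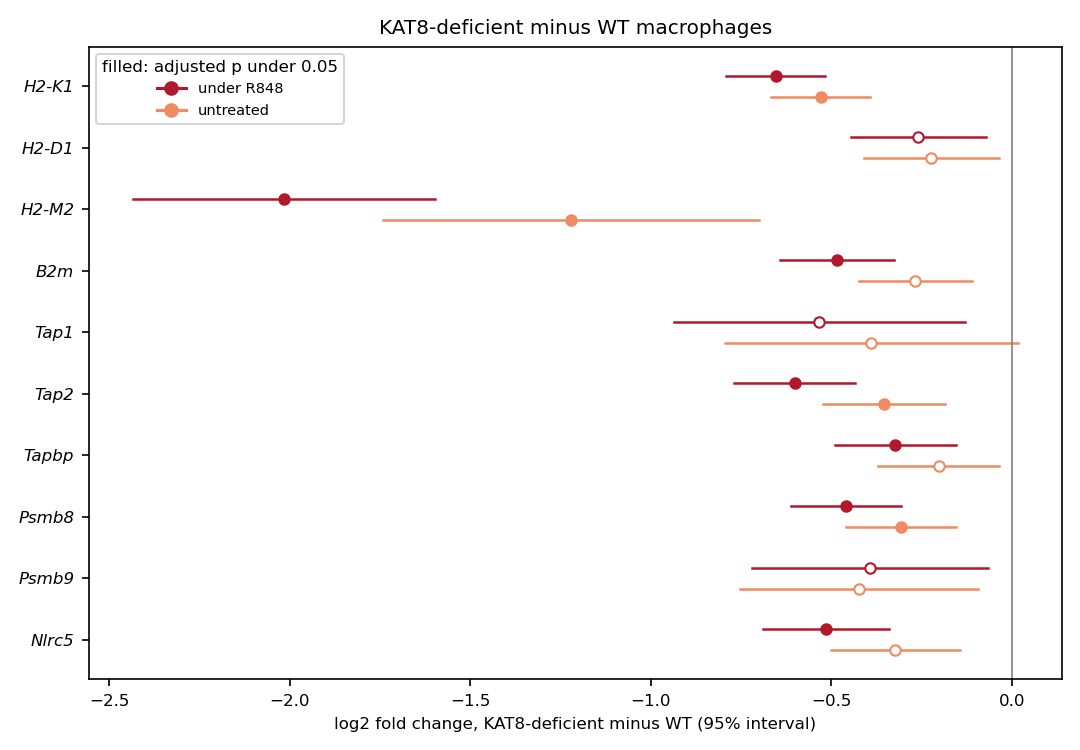
Log2 fold change of each class I gene, KAT8-deficient minus WT, under R848 (dark red, above) and untreated (orange), with 95% intervals. Filled points have an edgeR adjusted p under 0.05. All 20 points lie below 0, 7 of the 10 under R848 and 4 of the 10 untreated are filled, and H2-M2 lies furthest left.

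Nlrc5 (ENSMUSG00000074151, chromosome 8, 94434356 to 94527272) encodes the transactivator itself. Under R848 it stood at 29.1 and 26.9 CPM in KAT8-deficient libraries and at 39.7 and 40.4 CPM in WT libraries. Untreated it stood at 25.5 and 24.5 CPM in KAT8-deficient libraries and at 31.9 and 30.6 CPM in WT libraries. The KAT8-deficient libraries given R848 were below the untreated WT libraries, as for every other member except H2-M2 and Tapbp. The log2 difference was -0.52 (SE 0.077, edgeR adjusted p = 0.00321) under R848, passing in every alternative. Untreated it was -0.32 (SE 0.078, 95% interval -0.50 to -0.15, edgeR adjusted p = 0.058), which passed in 1 alternative, the fit that estimated the spread robustly (adjusted p = 0.0478).

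The balance of inducible over constitutive proteasome subunits was read as the log2 ratio of CPM within a library, so that library scaling cancels. These ratios are given as values with their spread and without a test, the exact permutation test of a single value being unable to pass the threshold with 2 libraries a group. The ratio of Psmb8 to Psmb5 was -0.85 and -1.06 in KAT8-deficient and -0.60 and -0.48 in WT libraries under R848, and -0.80 and -0.94 in KAT8-deficient and -0.29 and -0.51 in WT libraries untreated. All KAT8-deficient values lay below the WT values of their state, with mean differences of -0.42 under R848 and -0.47 untreated, beside a pooled SD between replicates of 0.13. The ratio depends on both genes, and Psmb8 alone differed by -0.46 under R848 and -0.31 untreated. Psmb5 averaged 135.5 ± 4.72 CPM in KAT8-deficient and 139.5 ± 12.1 CPM in WT cells under R848 (SD, n = 2 each). Untreated it averaged 129.3 ± 6.69 CPM in KAT8-deficient and 115.7 ± 10.9 CPM in WT cells. The ratio of Psmb9 to Psmb6 was -3.61 and -3.69 in KAT8-deficient and -3.26 and -3.75 in WT libraries under R848, where the groups overlapped. Untreated it was -3.67 and -3.74 in KAT8-deficient and -3.28 and -3.36 in WT libraries, with no overlap. Without WT R848 replicate 1 the mean difference in this ratio under R848, -0.15 with all libraries, was 0.10, and without WT R848 replicate 2 it was -0.39. The ratio of Psmb10, the inducible trypsin-like subunit gene, to Psmb7 was -0.90 and -0.95 in KAT8-deficient and -0.42 and -0.58 in WT libraries under R848. Untreated it was -1.02 and -0.89 in KAT8-deficient and -0.86 and -0.63 in WT libraries. It was lower in KAT8-deficient libraries without overlap in both states, by 0.43 under R848 and by 0.21 untreated in the mean, beside a pooled SD of 0.11. Without WT untreated replicate 2 the untreated mean difference was -0.09, and without WT untreated replicate 1 it was -0.32.

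**Figure D3:**
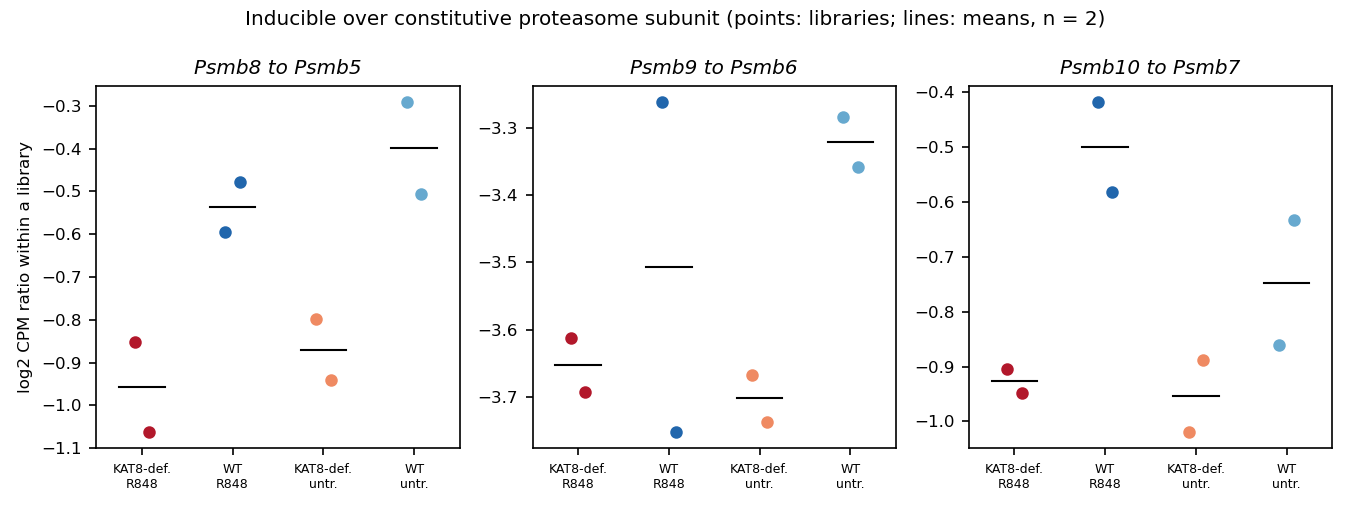
Log2 ratio of CPM of an inducible over a constitutive proteasome subunit gene in each library (vertical axes differ between panels and do not start at 0), with lines at the means of 2 libraries. For Psmb8 to Psmb5 every KAT8-deficient point lies below every WT point, and for Psmb9 to Psmb6 the WT R848 points, -3.26 and -3.75, span those of the KAT8-deficient R848 libraries.

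The next question was which class I genes R848 changed in WT cells. H2-M2 rose most, by 2.83 on the log2 scale (SE 0.19, edgeR adjusted p = 9.4e-05), and it was called in every alternative. B2m rose by 0.34 (SE 0.069, adjusted p = 0.0124), Tap2 by 0.31 (SE 0.073, adjusted p = 0.025), Tapbp by 0.37 (SE 0.074, adjusted p = 0.0111) and Nlrc5 by 0.36 (SE 0.077, adjusted p = 0.0164). Thus 5 of the 10 were called higher and 0 lower, where 6.94% of all tested genes were called higher and 6.7% lower. In 7 of the 10 (these 5, H2-K1 and Psmb8) both R848 libraries were above both untreated ones, against 27.7% of all tested genes. The classical heavy chains were flatter than the light chain, with H2-K1 at 0.21 (SE 0.060, 95% interval 0.08 to 0.35, adjusted p = 0.0506) and H2-D1 at 0.01 (SE 0.082, interval -0.17 to 0.20, adjusted p = 0.945), though that contrast between genes was not tested. H2-K1 was above its untreated range in both WT R848 libraries and passed in 6 alternatives, for example with the replicate block (adjusted p = 0.0365). Psmb8 at 0.13 (SE 0.066, interval -0.02 to 0.29), Tap1 at 0.14 (SE 0.18, interval -0.26 to 0.54) and Psmb9 at 0.01 (SE 0.14, interval -0.31 to 0.33) did not pass.

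Apart from H2-M2, the WT rises were small, and their calls were lost without single libraries even where the fold changed little. Nlrc5 stayed between 0.33 and 0.37 and Tapbp between 0.30 and 0.44 whichever library was left out. Without WT R848 replicate 1, B2m was at 0.24 (adjusted p = 0.104), Tap2 at 0.32 (0.111), Tapbp at 0.37 (0.0683) and Nlrc5 at 0.36 (0.0929), so that H2-M2 alone was called. Without WT R848 replicate 2, Tap2 (0.28, adjusted p = 0.14), Tapbp (0.36, 0.0645) and Nlrc5 (0.34, 0.104) were lost. B2m (0.28, adjusted p = 0.0678), Tap2 (0.20, 0.126) and Tapbp (0.30, 0.0626) were also lost without WT untreated replicate 1, and Nlrc5 without replicate 2 (0.33, 0.0815). Tap2 further lost its call without KAT8-deficient untreated replicate 1 (0.30, adjusted p = 0.0507) and with only the 4 libraries compared (0.062), and Nlrc5 by DESeq2 (0.0567).

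In KAT8-deficient cells H2-M2 was the only class I gene of the 10 called higher with R848, by 2.04 (SE 0.22, edgeR adjusted p = 0.0157), against 0.499% of all tested genes called higher and 0.135% lower. Its call was lost without KAT8-deficient untreated replicate 1 (1.93, adjusted p = 0.132) or replicate 2 (2.15, adjusted p = 0.0588) and with only the 4 libraries compared (2.03, adjusted p = 0.0813). Tapbp had 0.25 (SE 0.074, 95% interval 0.09 to 0.42, adjusted p = 0.191), B2m 0.13 (SE 0.069, interval -0.03 to 0.28) and Nlrc5 0.17 (SE 0.078, interval -0.01 to 0.34), none of which passed. The other 6 genes lay between -0.02 and 0.09. For H2-K1, H2-M2, B2m, Tap2, Tapbp and Nlrc5 both R848 libraries were above both untreated ones, against 23.8% of all tested genes. This comparison and the one in WT cells share libraries with both genotype comparisons.

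**Figure D4:**
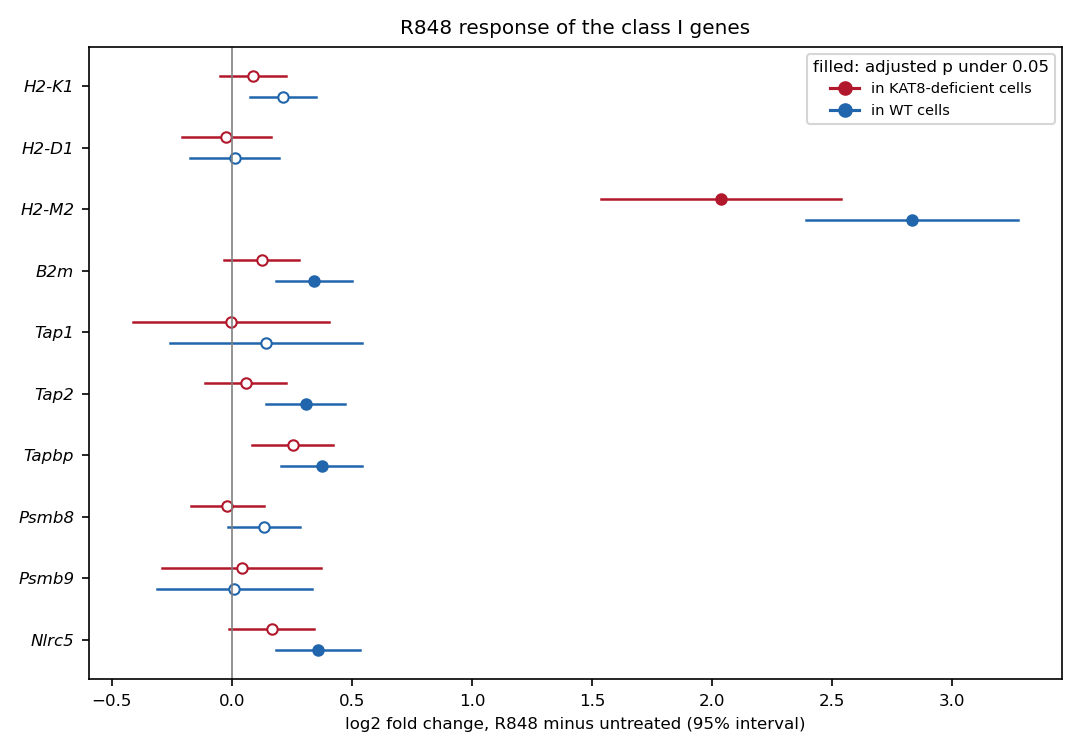
Log2 fold change of each class I gene, R848 minus untreated, in KAT8-deficient cells (red, above) and in WT cells (blue), with 95% intervals. Filled points have an edgeR adjusted p under 0.05. H2-M2 stands apart at 2.04 in KAT8-deficient and 2.83 in WT cells, and the other points lie between -0.02 and 0.37.

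Whether the response differed between genotypes was tested by the interaction, in which the WT response is subtracted from that of KAT8-deficient cells. It passed for 0 of the 10 genes by edgeR, against 0.228% of all tested genes, and for 0 by DESeq2 and limma-voom, with 2 of the 10 at an unadjusted p under 0.05. H2-M2 was at -0.79 (SE 0.29, 95% interval -1.47 to -0.12, edgeR adjusted p = 0.342) and Tap2 at -0.25 (SE 0.10, interval -0.49 to -0.01, adjusted p = 0.412). H2-M2 passed without KAT8-deficient R848 replicate 2 (-1.15, adjusted p = 0.0305), the library with the higher of its 2 values. The interaction was below 0 in 9 of the 10 genes, where 49% of all tested genes were, with a median of -0.15 beside 0.01 over all tested genes. Psmb9 was the exception, at 0.03 (SE 0.20). A larger genotype difference under R848 than without it was therefore not shown for any of these genes.

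Levels of different genes were compared per length, as CPM divided by kilobases of annotated exon (RPKM). B2m averaged 2033 ± 11.2 RPKM in KAT8-deficient and 2845 ± 255.3 RPKM in WT cells under R848, and 1864 ± 32.9 RPKM in KAT8-deficient and 2245 ± 96.2 RPKM in WT cells untreated (SD, n = 2 each). H2-D1 averaged 1916 ± 18.8 RPKM in KAT8-deficient and 2293 ± 52.4 RPKM in WT cells under R848, and 1948 ± 46.2 RPKM in KAT8-deficient and 2274 ± 302.7 RPKM in WT cells untreated. Light chain and H2-D1 messenger RNA were thus at like levels, and in untreated WT cells they did not differ beyond their spread. H2-K1 followed at 351 ± 0.733 RPKM in KAT8-deficient and 552.5 ± 11.4 RPKM in WT cells under R848, and 330.3 ± 14.9 RPKM in KAT8-deficient and 476.9 ± 25.8 RPKM in WT cells untreated. Tapbp came next, at 97.8 to 145.9 RPKM over the group means, then Psmb8 at 20.7 to 28.4 and Tap2 at 14.3 to 22.7. Tap1 (5.77 to 8.35) and Psmb9 (5.12 to 6.92) did not differ beyond their spread in any group. Nlrc5 was at 2.94 to 4.72 RPKM, and H2-M2 changed its place with treatment, at 9.89 ± 3.12 RPKM in KAT8-deficient and 40.1 ± 2.6 RPKM in WT cells under R848, against 2.41 ± 0.25 RPKM in KAT8-deficient and 5.63 ± 0.449 RPKM in WT cells untreated. It was thus below Nlrc5 in untreated KAT8-deficient cells and above Psmb8 in WT cells given R848.

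Other genes of the pathway were read from a list of 49, of which 40 passed the filter on low counts. Under R848, 16 were called lower in KAT8-deficient cells and 2 higher, where 5.47% of all tested genes were called lower and 8.14% higher. The median log2 difference was -0.25, beside -0.01 over all tested genes. The lower ones included 7 of 13 tested class I and related chains, 5 of 13 regulators, 2 of 7 proteasome genes and 2 of 7 loading and trimming genes. The Qa-region chain genes showed the widest gaps. H2-Q6 stood at 15.5 and 18.1 CPM in KAT8-deficient and at 55.7 and 56.1 CPM in WT libraries, with -1.74 on the log2 scale (SE 0.10, edgeR adjusted p = 0.000141). H2-Q5 was at -1.61 (SE 0.17, adjusted p = 0.00079), H2-Q7 at -1.48 (SE 0.11, adjusted p = 0.00025) and H2-Q4 at -0.96 (SE 0.074, adjusted p = 0.000322). These 4 share 21.8% to 36.4% of their windows of 50 bases with other genes, among them each other, H2-Q10, H2-K1 and H2-D1. For H2-Q4, 20.6% of windows also match the reverse complement of annotated transcripts. How the reads of these 4 genes were divided is therefore uncertain. H2-M3, whose product presents formylated peptides and which shares the spaced TGACG and ATTGG pair, was at -0.66 (SE 0.070, adjusted p = 0.00082). Irf1, an interferon regulatory factor gene, stood at 22.9 and 30.2 CPM in KAT8-deficient and at 56.5 and 57.7 CPM in WT libraries, with -1.11 on the log2 scale (SE 0.14, adjusted p = 0.00141). The 2 higher genes, named after their values were seen, encode chaperones of the endoplasmic reticulum. Both are among the 7 loading and trimming genes, of which 2 were thus higher and 2 lower. Calr, for calreticulin, was at 0.26 (SE 0.052, adjusted p = 0.0115) and Pdia3, for the disulfide isomerase ERp57, at 0.28 (SE 0.061, adjusted p = 0.0189). Both lost their calls without single libraries, Calr without KAT8-deficient R848 replicate 1 (adjusted p = 0.0651) or WT R848 replicate 1 (0.0957), and Pdia3 without KAT8-deficient R848 replicate 1 (0.0902) or 2 (0.0513) or WT R848 replicate 2 (0.125). The other genes given here with values were called whichever library was left out. Among the remaining lower genes, Tapbpl, Psme2, H2-T23, Rfx5, Rela and Ciita lost their calls without single libraries.

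**Figure D5:**
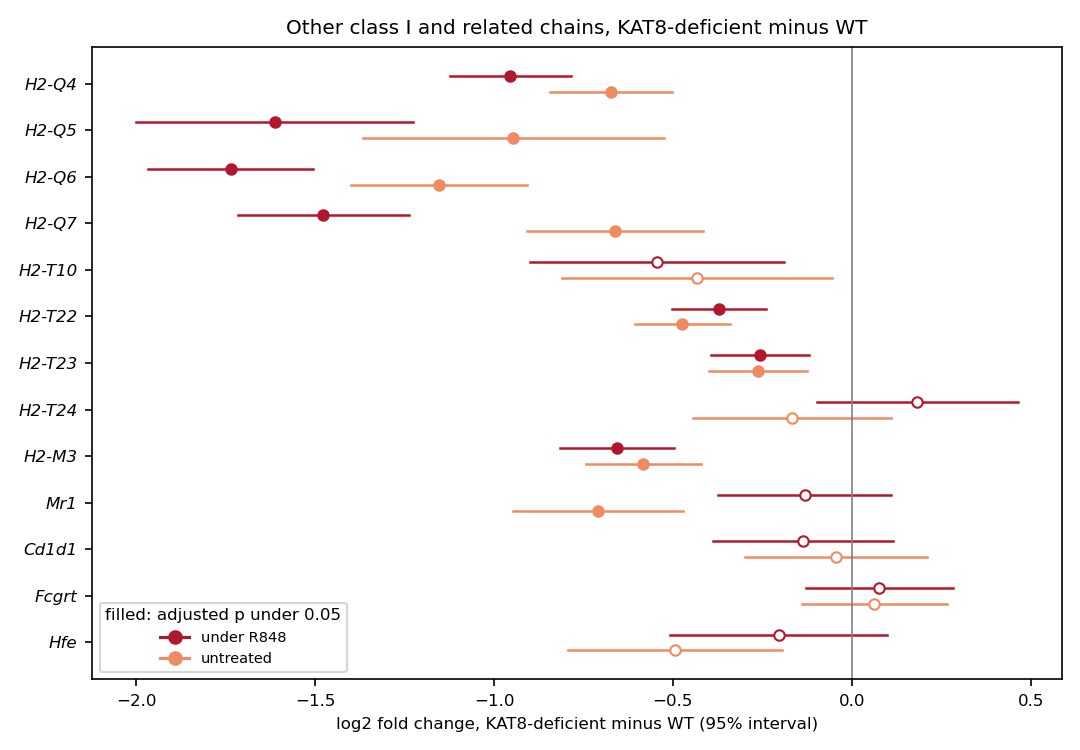
Log2 fold change, KAT8-deficient minus WT, of the 13 tested class I and related chain genes outside the 10, under R848 (dark red, above) and untreated (orange), with 95% intervals. Filled points have an edgeR adjusted p under 0.05. H2-Q6 reaches -1.74 under R848, while Fcgrt and Cd1d1 lie near 0.

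Untreated, 8 of the 40 tested pathway genes were called lower in KAT8-deficient cells, all of them chain genes. Calr alone was called higher, at 0.28 (SE 0.052, edgeR adjusted p = 0.0242). Of all tested genes, 1.36% were lower and 2.91% higher. The median log2 difference of the 40 was -0.15, beside -0.01 over all tested genes. H2-Q6 was at -1.15 (SE 0.11, adjusted p = 0.0019), H2-Q4 at -0.67 (SE 0.075, adjusted p = 0.00395), H2-M3 at -0.58 (SE 0.070, adjusted p = 0.00523), H2-T22 at -0.48 (SE 0.058, adjusted p = 0.00557), Mr1 at -0.71 (SE 0.10, adjusted p = 0.011) and H2-Q7 at -0.66 (SE 0.11, adjusted p = 0.0148). Mr1 presents vitamin B metabolites and H2-T22 is a ligand of some gamma delta T cells. No regulator and no proteasome gene of the list was called in this state, and Irf1 stood at 24 and 19.5 CPM in KAT8-deficient and at 22.6 and 24.3 CPM in WT libraries. H2-Q6 was called whichever library was left out. H2-Q4 (adjusted p = 0.0515), H2-M3 (0.0568) and H2-T22 (0.0618) were lost without KAT8-deficient untreated replicate 1, and Mr1, H2-Q7 and Calr without several single libraries (0.0599 to 0.164). H2-Q5 (-0.95, adjusted p = 0.0288) was lost without any library of 3 groups, and H2-T23, the eighth chain called lower, without each of the 8 libraries in turn.

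With R848, 14 of the 40 were called higher in WT cells and 2 lower, where 6.94% of all tested genes were called higher and 6.7% lower. H2-Q6 rose by 1.38 (SE 0.10, edgeR adjusted p = 0.000112), H2-Q7 by 1.16 (SE 0.10, adjusted p = 0.000224), H2-Q4 by 0.75 (SE 0.074, adjusted p = 0.000351), Nfkb1, an NF-kB subunit gene, by 1.21 (SE 0.12, adjusted p = 0.000351) and Irf1 by 1.29 (SE 0.14, adjusted p = 0.000595). Mr1 fell by 0.78 (SE 0.10, adjusted p = 0.00167), and the other gene called lower was H2-T24. H2-Q6, H2-Q7, H2-Q4, Nfkb1, Irf1 and Mr1 held their calls whichever library was left out. H2-T24 lost its call without any 1 of the 4 WT libraries (-0.59 to -0.52). Of the genes called higher, Tapbpl, Erap1, Psmb10, Psme1, Psme3 and Rfx5 also lost their calls without single libraries. In KAT8-deficient cells 2 of the 40 were called higher, H2-Q6 by 0.80 (SE 0.11, adjusted p = 0.03) and H2-Q4 by 0.47 (SE 0.075, adjusted p = 0.0405), and 0 lower. Of all tested genes, 0.499% were called higher and 0.135% lower. Both were lost without 5 of the 8 libraries in turn, namely both untreated KAT8-deficient ones, both WT R848 ones and KAT8-deficient R848 replicate 2 (adjusted p = 0.0654 to 0.289).

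Patterns over the 8 libraries were compared as the root mean square difference of log2 CPM after each gene was centred on its own mean, among 10535 genes with at least 5 CPM on average. The closest to H2-M2 were Acod1, which encodes the itaconate-making enzyme (0.11), Clec4e, which encodes the lectin receptor Mincle (0.19), and Fpr2, a formyl peptide receptor gene (0.26), beside an SD of 1.47 for H2-M2 itself. Among the other listed members the nearest to H2-M2 was Nlrc5, at 1.26. Distances from H2-M2 to class I chain genes outside the members, such as H2-Q6, were not read. For H2-K1 the closest were Sema4a (0.05), Pbxip1 (0.07) and H2-M3 (0.07), beside an SD of 0.31. Tap2 had H2-K1 as its closest gene (0.07), the only pair of listed members among these nearest genes. B2m was closest to Psmb10 (0.04) and Sowahc (0.04), Tapbp to Ccdc86 (0.04) and Csf1r (0.04), Psmb8 to Bloc1s5 (0.04) and Trim12c (0.04), and Nlrc5 to Zfp992 (0.04) and Idnk (0.06). Genes with small changes have many near neighbours on this measure, which is given as a description.

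Some members overlap other annotated genes on the opposite strand, and the strand setting of the counting was not stated. Windows of 50 bases were matched to the reverse complement of all annotated transcripts, wherever these lie, so a match need not be an overlapping gene. Tap1 shared 3.33% and Psmb9 4.19% of windows in this way, among them with each other. For Tap2 that share was 11.6%, for Psmb8 11.8% and for Tapbp 21.1%. Partners included Gm27162 and Gm10602 for Psmb8 and Aspscr1 and Gm32624 for Tapbp, whose levels were not read. The opposite partner of Psmb9 is Tap1, itself a member, counted at 27.8 to 53.1 CPM. Among the partners whose levels were read, Gm20496 (opposite Tap2 and Psmb8) was at 0 in every library and Gm15821 (opposite Tap1 and Tap2) at most at 1 count. Gm19412 (opposite Tapbp) was at 0.374 to 0.839 CPM. Opposite Nlrc5, which shared 0.338% of its windows in this way, 9330175E14Rik was at 0.16 to 5.11 CPM.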

How the data were processed

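The deposited gene table holds whole-number counts of 34745 genes in 8 messenger RNA libraries, 34267 with a symbol. No row was left out of the library totals quoted in the results. HISAT2, StringTie 1.3.0, edgeR and mm10 are named per the submitters' processing notes, without their roles. The annotation, the counting method and its strand setting were not stated in the sources read. Genes were filtered by filterByExpr, which kept 14040, and normalised by TMM. All 8 libraries entered 1 edgeR quasi-likelihood fit (edgeR 4.0.16, R 4.3.3) with 4 groups, and contrasts gave log2 fold changes, standard errors and 95% intervals. P-values were adjusted by Benjamini-Hochberg over all 14040 genes, and genes under 0.05 were called. The script was tested on simulated data. CPM (counts scaled to the TMM-adjusted total of the 14040 genes kept) were used for levels, and RPKM divide them by GENCODE M21 exon length.

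The 10 members and all lists were chosen with earlier results of these data known. All members are named, and of the other pathway genes up to 6 called ones with the smallest adjusted p in each comparison. Genes named beyond these were chosen after their values were seen. Alternatives were DESeq2 size factors, the DESeq2 1.42.0 Wald test, limma-voom (limma 3.58.1), other filters on low counts, robust estimation of the spread, the replicate number as a block, only the 4 libraries compared, and each library left out in turn. Replicates differed by more than counting noise in every group (chi-square per degree of freedom 7.83 to 12.7), so none was taken as deposited more than once. Precision is limited by 2 libraries a group and 4 residual degrees of freedom.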

Additional observations from a re-analysis of the deposited data

How the results depend on the processing

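Over all alternatives, 713 member values kept their direction and side of the threshold, 40 lost a call, 21 gained one and 16 changed sign, all of the last uncalled. With 1 library left out, uncalled values that changed sign ranged as follows. For R848 in WT cells H2-D1 ranged from -0.133 to 0.158, Tap1 from -0.121 to 0.349 and Psmb9 from -0.220 to 0.197. For R848 in KAT8-deficient cells Tap1 ranged from -0.192 to 0.159, Psmb8 from -0.093 to 0.047 and Psmb9 from -0.076 to 0.172. For the interaction H2-D1 ranged from -0.180 to 0.107, Tap1 from -0.355 to 0.116 and Psmb9 from -0.159 to 0.257. Sign also changed for Psmb9 in WT cells by limma-voom (-0.008) and Tap1 in KAT8-deficient cells with no filter (0.006). The cause was not tested.

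With 1 library left out, the members called ranged from 6 to 8 for KAT8 deficiency under R848, 0 to 4 untreated, 1 to 5 for R848 in WT cells, 0 to 1 for R848 in KAT8-deficient cells and 0 to 1 for the interaction. Over all genes the calls ranged from 784 to 1894, 66 to 606, 858 to 1826, 2 to 186 and 6 to 208 in the same order of comparisons, beside 1911, 600, 1916, 89 and 32 with every library. The log2 ratio of Psmb9 to Psmb6 ranged from -0.39 to 0.10 for KAT8 deficiency under R848 and from -0.43 to 0.059 for R848 in WT cells. The ratio of Psmb10 to Psmb7 ranged from -0.32 to -0.093 for KAT8 deficiency untreated and from 0.13 to 0.36 for R848 in WT cells. For R848 in KAT8-deficient cells all-gene calls were 274 with no filter, 235 by DESeq2, 158 with robust spread and 22 with only the 4 libraries compared, which left 0 members. For KAT8 deficiency untreated, only the 4 libraries gave 384 genes and 2 members. The interaction gave 245 with no filter, 227 by DESeq2 and 148 with robust spread. Same-numbered libraries did not deviate together (correlations -0.060 to 0.048), so the numbers were not taken as pairs. With the replicate block the members called were 7 under R848, 4 untreated, 6 for R848 in WT cells, 1 in KAT8-deficient cells and 0 for the interaction, and all-gene calls were 1871, 531, 1875, 73 and 25.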
